A study of Drosophila melanogaster with 21 samples.

Results

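The basement membrane genes described here are 10 Drosophila melanogaster genes, namely LanA, LanB1, LanB2, wb, Col4a1, vkg, trol, Ndg, SPARC and Ppn. They were chosen by name, as genes of laminin, collagen IV, perlecan and other basement membrane proteins, out of 17869 FlyBase genes in a table of embryo total RNA counts. All 10 had a row in that table and all 10 passed the filter on low counts. None of the 10 had a row in the table of RNA recovered by immunoprecipitation (RIP), which held 2168 genes.

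The series concerned topoisomerase 3 beta (Top3beta), an enzyme that acts on both DNA and RNA, and asked what neurons undergo when its enzymatic activity is missing. Whole-embryo RNA was profiled in wild-type flies and in 3 mutants, each in 3 libraries: Top3b26, Y332F (genotype label Top3bY332F) and delRGG (genotype label Top3b[delta]RGG). RIP samples came from embryos with eGFP-tagged Top3b (6 samples) or eGFP-tagged Top3b-Y332F (3 samples). The labels give no embryonic age, no collection window and no genetic background beyond these names, and do not say whether replicates were separate collections, so p-values measure the spread between these samples. The wild-type columns carry another letter than the mutant columns; if that letter marks a library set, set and genotype cannot be told apart.

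A basement membrane is a sheet of extracellular matrix under epithelia and around muscles, nerves and gut. Laminin, a trimer of an alpha, a beta and a gamma chain, assembles on cell surfaces, collagen IV forms a second network, and perlecan and nidogen bind to both. In Drosophila embryos the sheet is laid down as organs form, in large part by migrating blood cells (hemocytes) and later by fat body. Cells hold on to it through integrins and dystroglycan.

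Total counts per library ran from 22400118 to 31125584. The 10 genes together took 0.189% to 0.396% of the counts in wild type, 0.0155% to 0.055% in Top3b26, 0.0384% to 0.0623% in Y332F and 0.0343% to 0.231% in delRGG. As a check of the labels, Top3beta itself was lower in Top3b26 than in wild type by a log2 change of -2.37 (standard error 0.13, edgeR adjusted p 1.12e-06), and did not pass the test in Y332F (0.13, edgeR adjusted p 0.418) or delRGG (0.23, edgeR adjusted p 0.285). Levels below are in CPM, counts normalised to library sizes that were scaled by the TMM method. They compare samples for one gene; transcript length was not corrected for, so levels of different genes are not set against each other. A gene is called where the adjusted p-value of edgeR's quasi-likelihood test, over all 10238 features tested, is under 0.05.

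The collagen IV pair was among the genes furthest below wild type. Col4a1 (FBgn0000299) and vkg (FBgn0016075) encode the alpha chains of collagen IV and are direct neighbours in the genome. Col4a1 stood at 92.7, 129.9 and 286 CPM in wild-type replicates 1 to 3, at 18.3, 5.595 and 6.56 CPM in Top3b26, and at 28.96, 15.9 and 29.2 CPM in Y332F. In delRGG it stood at 206, 55.5 and 15.7 CPM. Every Top3b26 and Y332F library lay below every wild-type library, whereas the delRGG libraries ran from within the wild-type range to the level of the other mutants. Genotype means (SD, n = 3) were 10.2 ± 7.09 CPM for Top3b26 and 169.6 ± 103 CPM for wild type, which gives a log2 change of -4.04 (standard error 0.87, edgeR adjusted p 0.0039). In Y332F the log2 change was -2.78 (standard error 0.81, edgeR adjusted p 0.0207), and in delRGG it was -0.88 (standard error 0.76, edgeR adjusted p 0.465).

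vkg followed the same order of libraries as Col4a1 within each genotype. It stood at 79.1, 109 and 230 CPM in wild-type embryos, 14.25, 4.69 and 5.995 CPM in Top3b26, 20.9, 13.5 and 22.6 CPM in Y332F and 150.1, 40.03 and 10.1 CPM in delRGG. Against wild type it fell by 4.05 on the log2 scale in Top3b26 (standard error 0.86, edgeR adjusted p 0.00375) and by 2.87 in Y332F (standard error 0.81, edgeR adjusted p 0.0181). The delRGG difference of -1.06 was not called (standard error 0.76, edgeR adjusted p 0.384).

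Perlecan, a large heparan sulfate proteoglycan encoded by trol (FBgn0284408), had the lowest log2 change of the 10 genes in both Top3b26 and Y332F. Its level was 124, 172 and 394 CPM in wild-type embryos, 19.7, 6.83 and 8.51 CPM in Top3b26, 29.4, 18.1 and 33.98 CPM in Y332F and 264, 66.98 and 17.1 CPM in delRGG. The fall was 4.28 on the log2 scale in Top3b26, to 5.07% of the wild-type mean (standard error 0.89, edgeR adjusted p 0.00351). In Y332F trol stood at 11.8% of the wild-type mean, a log2 change of -3.08 (standard error 0.84, edgeR adjusted p 0.0164).

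Nidogen (Ndg, FBgn0026403), which bridges laminin and collagen IV networks in mammals, stood at 98.8, 125 and 273 CPM in wild-type libraries and at 20.9, 5.975 and 10.25 CPM in Top3b26. It stood at 28.96, 17.5 and 25.5 CPM in Y332F and at 133, 53.8 and 9.725 CPM in delRGG. Ndg was lower than wild type in Top3b26 (log2 change -3.73, standard error 0.81, edgeR adjusted p 0.004) and in Y332F (-2.79, standard error 0.77, edgeR adjusted p 0.0173). SPARC (FBgn0026562), a small glycoprotein that binds collagen IV, was the least counted of the 10, with 306, 512 and 1558 counts in wild type and 108, 22 and 21 counts in Top3b26. In CPM these were 12.9, 21.7 and 60.7 against 3.47, 1.04 and 0.851, and the Y332F libraries held 4.315, 2.88 and 4.21 CPM. SPARC was lower in Top3b26 (log2 change -4.13, standard error 0.87, edgeR adjusted p 0.00369) and in Y332F (-3.06, standard error 0.83, edgeR adjusted p 0.0161), again with no overlap between the libraries compared.

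In Top3b26 and Y332F the laminin chains were less far below wild type than collagen IV; in delRGG this order did not hold, with LanB1 at -0.93 and Col4a1 at -0.88. LanA (FBgn0002526), an alpha chain, stood at 622, 544 and 1079 CPM in wild-type embryos, 212, 57.85 and 149 CPM in Top3b26, 202, 135 and 217 CPM in Y332F and 648, 437 and 124 CPM in delRGG. It fell by 2.42 on the log2 scale in Top3b26 (standard error 0.58, edgeR adjusted p 0.00584) and by 2.02 in Y332F (standard error 0.57, edgeR adjusted p 0.0184). LanB1 (FBgn0261800), the beta chain, ranged from 229 to 442 CPM in wild type, from 35.7 to 95.5 CPM in Top3b26 and from 68.1 to 100.5 CPM in Y332F. LanB2 (FBgn0267348), the gamma chain, ranged from 141.4 to 244.5 CPM in wild type, from 12.3 to 47.8 CPM in Top3b26 and from 39.6 to 66.7 CPM in Y332F. Both chains fell in Top3b26, to 22.9% and 18.6% of the wild-type mean (edgeR adjusted p 0.00426 and 0.00536). In Y332F they fell to 28.4% and 31.5% (edgeR adjusted p 0.0139 and 0.0316).

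The second alpha chain, wb (FBgn0261563), was the gene nearest to wild type in each of the 3 mutants. It stood at 64.9, 48.4 and 88.8 CPM in wild-type embryos, 31.1, 9.199 and 30.3 CPM in Top3b26, 40.1, 28.8 and 41.1 CPM in Y332F and 63.7, 55.2 and 30.8 CPM in delRGG. Its libraries in Top3b26 and Y332F all lay below the lowest wild-type one. On the log2 scale wb differed by -1.51 in Top3b26 (standard error 0.42, edgeR adjusted p 0.0107), and the value of -0.88 in Y332F was not called (standard error 0.41, edgeR adjusted p 0.104). Ppn (FBgn0003137) encodes papilin, a matrix glycoprotein, whose log2 change lay between those of laminin and collagen IV in Top3b26 and Y332F but not in delRGG. Its level was 361, 350.5 and 701 CPM in wild-type embryos, 88, 25.99 and 51.04 CPM in Top3b26, 101, 60.2 and 105 CPM in Y332F and 382, 197 and 37.4 CPM in delRGG. It fell by 3.09 on the log2 scale in Top3b26 (standard error 0.71, edgeR adjusted p 0.00487) and by 2.41 in Y332F (standard error 0.69, edgeR adjusted p 0.019).

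**Figure D1:**
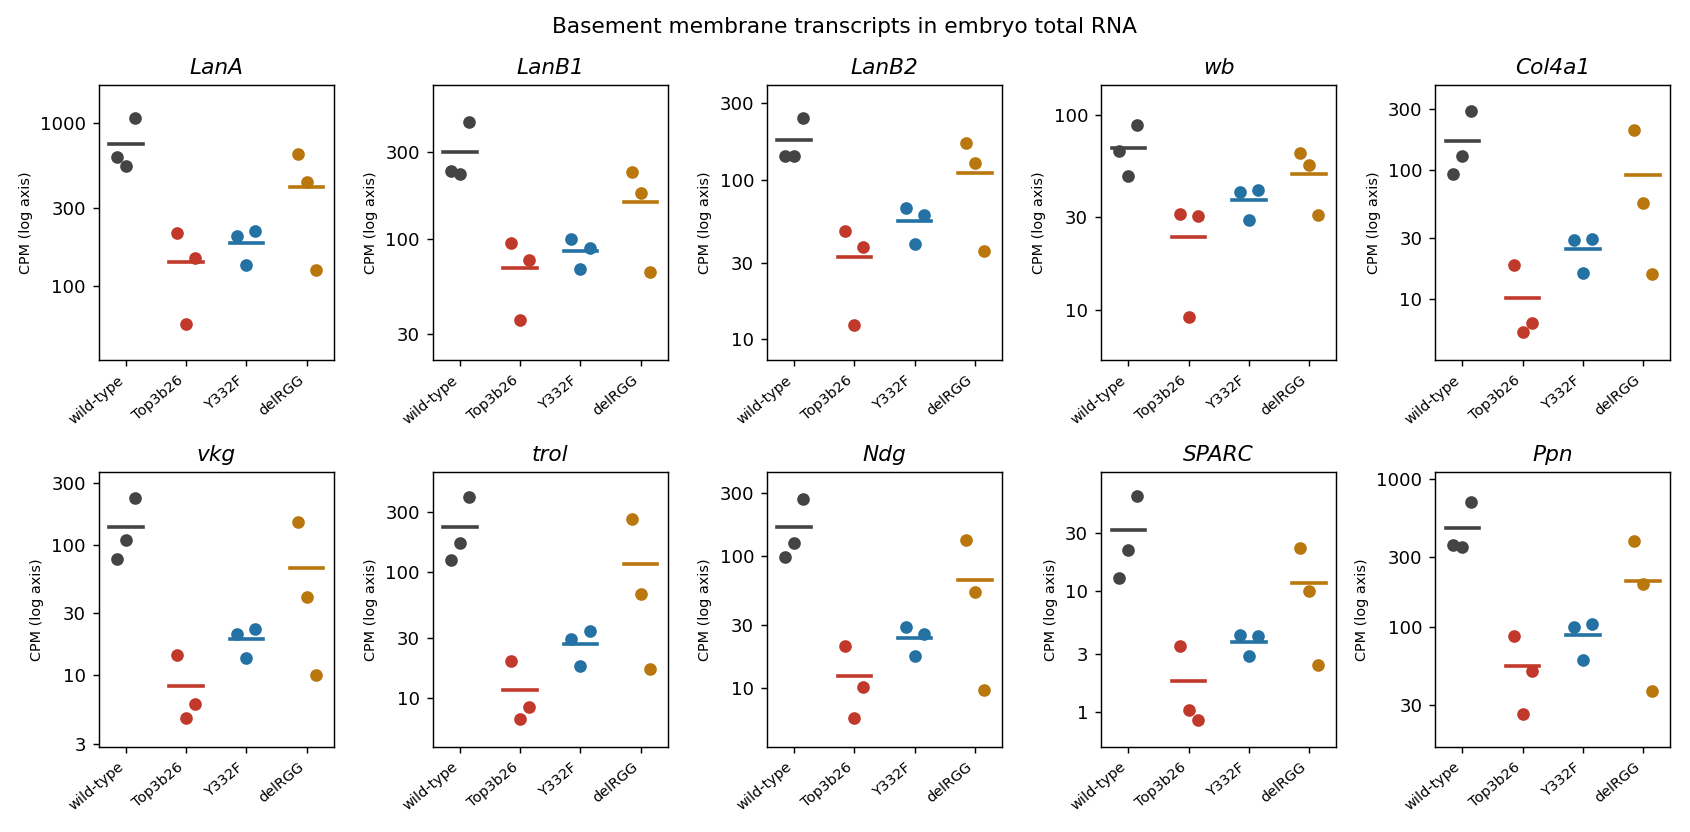
Level of each of the 10 genes in the 12 total RNA libraries, in CPM on a log axis; points are libraries and bars are genotype means (n = 3). The Top3b26 and Y332F points lie below all wild-type points for each gene, while the delRGG points are spread widely, for Col4a1 from 15.7 to 206 CPM.

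Counted together, 10 of the 10 genes were lower in Top3b26, where 33.7% of all features tested were called lower, and the libraries did not overlap for 10 of 10 (38.4% of all features lay lower without overlap). Their median log2 change was -3.41, against -0.04 over all features. A log2 change below that of trol, the lowest of the 10 genes, was seen in 7.36% of features. For wb, the highest, this share was 27.6%. In Y332F, 9 of 10 were lower, where 28.2% of features were called lower, and 10 of 10 did not overlap (34.8% of features). The median there was -2.59, against -0.04 over all features, and 9.74% of features had a log2 change below that of trol and 30.5% below that of wb. Both comparisons use the same wild-type libraries. In bulk RNA of whole embryos, fewer cells of a type and less RNA per cell cannot be told apart. The Y332F count depended on single libraries, as did that of all features, of which 2883 were called lower with all libraries. Without wild-type replicate 3, 0 of 10 genes and 1066 of all features were called lower. Without Y332F replicate 2 these were 0 and 848, and without Y332F replicate 1 they were 1, LanB1, and 1396. All 10 log2 changes stayed below 0 in those fits.

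In delRGG, 0 of the 10 genes were called by edgeR, where 2.7% of features were called lower; 0 had an unadjusted p-value under 0.05 and DESeq2 called 0. The log2 changes lay between -1.45 for SPARC and -0.43 for wb, with edgeR adjusted p-values from 0.249 to 0.5, and the delRGG libraries overlapped wild type for 10 of 10 genes (12% of features lay lower without overlap). The spread within delRGG was wide, with the highest library at 15.4 times the lowest for trol, 14.8 times for vkg and 13.7 times for Ndg. The same ratio in wild type was 3.17 for trol, 2.91 for vkg and 2.76 for Ndg. Averaged over the 10 genes as log2 CPM centred on each gene's mean, delRGG replicate 1 stood at 1.71, replicate 2 at 0.63 and replicate 3 at -1.23. Wild type spanned 1.23 to 2.47 on that measure, Y332F -0.98 to -0.32 and Top3b26 -2.38 to -0.68. Without delRGG replicate 1, vkg was called lower than wild type, in a fit where 606 of all features were called lower against 276 with all libraries. It was the sole gene of the 10 to be called in any fit of this comparison.

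**Figure D2:**
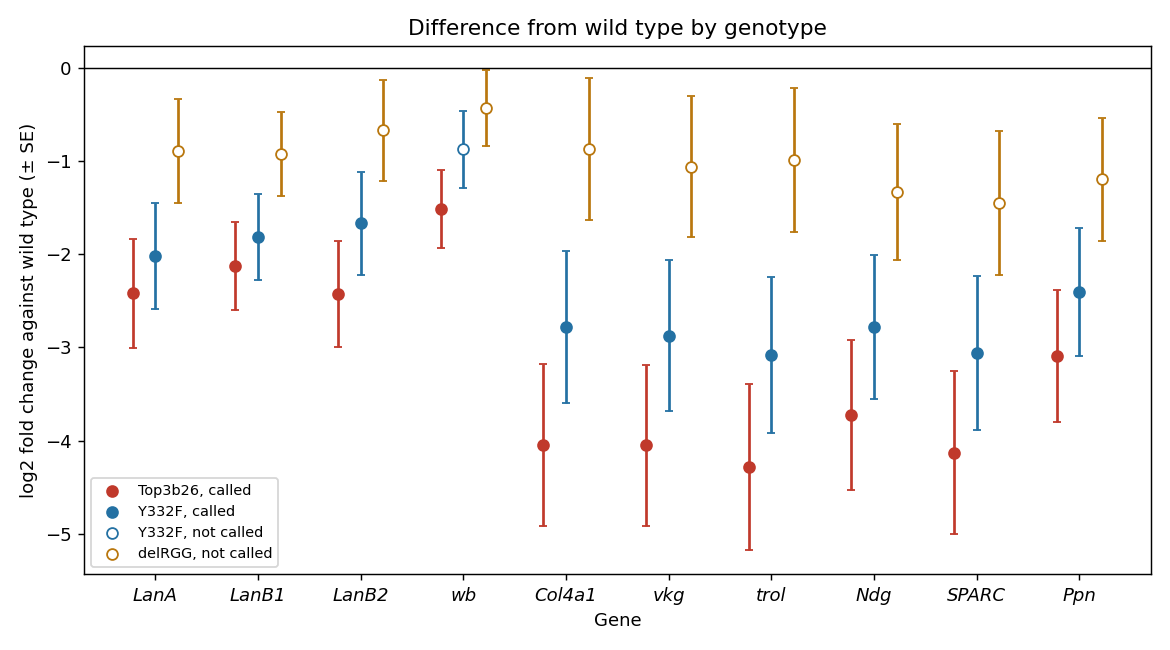
Fitted log2 change against wild type with its standard error for the 10 genes in Top3b26, Y332F and delRGG; filled points passed the edgeR test and open points did not. In Top3b26 the laminin chains lie between -2.42 and -1.51, and collagen IV, perlecan, nidogen and SPARC between -4.28 and -3.73.

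Between mutants, Top3b26 had the lower mean for each of the 10 genes. Y332F was above Top3b26 by 0.31 for LanB1 to 1.26 for Col4a1 on the log2 scale, and edgeR called 0 of 10 (7.27% of features were called in either direction), with 0 at an unadjusted p-value under 0.05 and 0 by DESeq2. Against Top3b26, delRGG was higher for 6 of 10 genes, LanB2, Col4a1, vkg, trol, Ndg and SPARC, where 17.3% of features were called higher. Means of trol (SD, n = 3) were 115.9 ± 130.4 CPM for delRGG and 11.7 ± 7.01 CPM for Top3b26, which gives a log2 change of 3.29 (standard error 0.86, edgeR adjusted p 0.0212), although the libraries overlapped for 10 of 10 genes (20.7% of features lay higher without overlap). This count, like that of all features (1776 called higher with all libraries), depended on single libraries. It was 0 without Top3b26 replicate 2, Top3b26 replicate 3 or delRGG replicate 1, where 404, 413 and 589 of all features were called higher. With the compared genotypes fitted alone it was 0, with 686 features called higher. It was 3 without delRGG replicate 2 and 10 without delRGG replicate 3, with 1168 and 2699 features called higher. delRGG and Y332F differed in 0 of 10 genes by edgeR (2.46% of features were called) and by DESeq2, with 3 at an unadjusted p-value under 0.05 and 7 of 10 called higher in delRGG without delRGG replicate 3, a fit in which 992 of all features were called higher against 132 with all libraries.

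Ratios of counts within a library ask whether partner chains moved by the same factor, since library size cancels. The ratio of the collagen pair, Col4a1/vkg, was 1.17 to 1.25 in wild type and 1.095 to 1.287 in Top3b26. It was 1.18 to 1.38 in Y332F and 1.37 to 1.55 in delRGG. Thus the collagen ratio overlapped wild type in Top3b26 and Y332F and lay above it in delRGG. For trol/Col4a1 the wild-type libraries held 1.33 to 1.38, above the 1.075 to 1.296 of Top3b26, the 1.014 to 1.164 of Y332F and the 1.09 to 1.28 of delRGG.

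Within laminin, the gamma to beta ratio LanB2/LanB1 was 0.553 to 0.618 in wild type and lower, at 0.346 to 0.5002, in Top3b26. It overlapped wild type in Y332F (0.581 to 0.6697) and in delRGG (0.544 to 0.726). For the alpha chains, wb/LanA was 0.0823 to 0.1043 in wild type. It lay above that range, at 0.147 to 0.204 in Top3b26 and 0.189 to 0.214 in Y332F. In delRGG wb/LanA ran from 0.0983 to 0.2475 and overlapped wild type.

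Collagen IV was set against laminin as well. Col4a1/LanA was 0.149 to 0.265 in wild type, 0.0441 to 0.0967 in Top3b26 and 0.118 to 0.144 in Y332F, below wild type without overlap in both, and 0.126 to 0.318 in delRGG. Of 11 such ratios, 8 lay outside the wild-type range without overlap in Top3b26, as did 7 in Y332F and 3 in delRGG. Most of the 11 have LanA as the denominator, so they are not separate observations. The share over other gene pairs was not taken. With 3 libraries a group the two-sided exact permutation test cannot go below 0.1, which is the value at each of these separations, and over the 33 comparisons the smallest Benjamini-Hochberg adjusted p was 0.183.

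**Figure D3:**
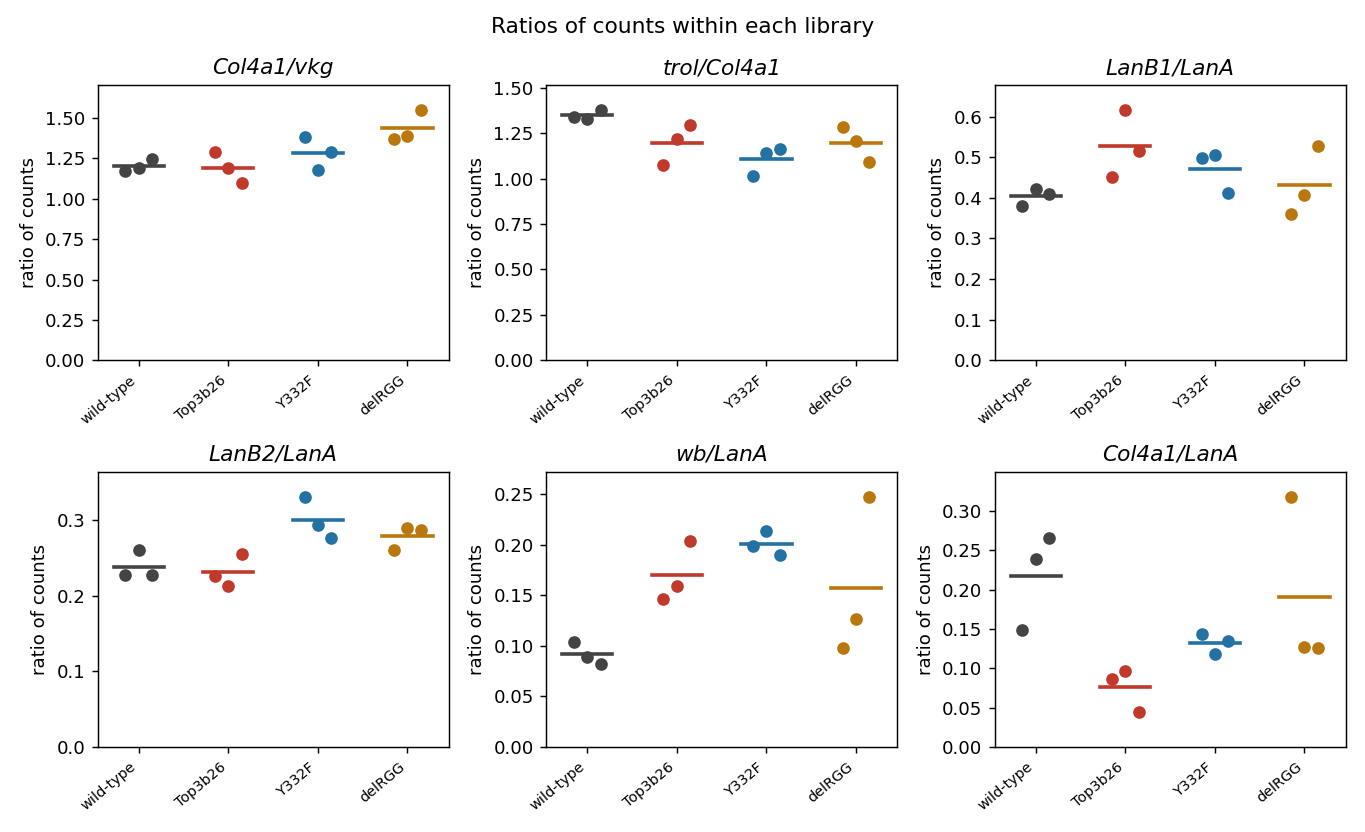
Ratio of the counts of gene pairs within each library by genotype; points are libraries, bars are means (n = 3) and axes start at 0. Col4a1/vkg spans 1.095 to 1.55 over the 12 libraries, while Col4a1/LanA reaches 0.0441 in Top3b26 against at least 0.149 in wild type.

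Profiles over the 12 libraries grouped the genes in the same way, and they rest on the same values as the changes and ratios above. By the root mean square distance between centred log2 CPM, the nearest partner of trol was vkg (0.13), that of LanB2 was LanA (0.18), that of SPARC was Col4a1 (0.26) and that of Ppn was Ndg (0.27). The gene farthest from each of Col4a1, vkg, trol, Ndg, SPARC and Ppn was wb, at 0.82 to 1.23. Among the 6350 other genes with a mean of at least 10 CPM, the 5 nearest to the mean profile of the 10 genes were fne, CG42268, cpo, CG9932 and CG13928, at distances of 0.16 to 0.19. fne and cpo encode RNA-binding proteins of the nervous system. These 5 genes were picked for nearness over the same 12 libraries, so their log2 changes follow from that choice. Against wild type the changes were -3.31 to -2.83 in Top3b26 and -2.36 to -2.12 in Y332F.

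Late embryo markers were lower in the same mutants as the 10 genes, as were the tested fat body markers. Hemocyte markers had median log2 changes of -1.61 in Top3b26 and -0.99 in Y332F, with crq higher in Top3b26. Early embryo markers gave mixed values. Of 20 markers of late embryos, genes of muscle contraction, synapses and cuticle, 18 were tested and 18 were lower in both Top3b26 and Y332F. Of all features, 33.7% and 28.2% were called lower in these mutants. The late markers had median log2 changes of -4.43 and -3.32 (in Y332F 9 were called without Y332F replicate 2 and 10 without wild-type replicate 3). Their summed level was 1292 to 4163 CPM in wild type, 77.0 to 195 CPM in Top3b26, 163 to 296 CPM in Y332F and 167 to 2068 CPM in delRGG. Cpr47Ef, which was too low to test, had 5, 7 and 8 counts in wild type and 0 in each Top3b26 library. As for the basement membrane genes, wild-type replicate 3 was highest and delRGG ran from replicate 1 down to replicate 3. With the mean level of these markers as a covariate, 0 of the 10 genes were called in Top3b26 or Y332F, and 9 of 10 log2 changes were above 0 in each, with values up to 0.55 and 0.64. The covariate itself separates wild type from these mutants.

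Early embryo markers, such as genes of the maternal axis and segmentation, summed to 3255 to 3462 CPM in wild type and to higher levels in Top3b26 (4180 to 4703), Y332F (4293 to 4486) and delRGG (3752 to 4452). The most counted of the list, nanos, averaged 1182.8 CPM over the wild-type libraries, against 1740.1 for Top3b26 and 1689.5 for Y332F, so it weighs on these sums. Of 19 tested out of 20, 5 were higher and 2 lower in Top3b26, and 5 were higher in Y332F, where 23.5% and 15.3% of all features were called higher. Those higher in Top3b26 were bcd, nanos, osk, gcl and pgc. Those lower were kni and sna, with log2 changes of -0.96 and -1.08. Those higher in Y332F were bcd, nanos, pgc, zld and hb. The count of called markers was 4 in Top3b26 without wild-type replicate 3 or Top3b26 replicate 2, and 3 in Y332F without Y332F replicate 1 or 2. Their median log2 change was -0.14 in Top3b26, against the direction of the sum, and 0.22 in Y332F. Sry-alpha had 0 counts in each genotype.

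Fat body markers summed to 1717 to 3557 CPM in wild type, 294 to 571 CPM in Top3b26, 390 to 746 CPM in Y332F and 386 to 1576 CPM in delRGG, most of it from the lipoprotein gene apolpp. All 4 that were tested, of 9, were lower in Top3b26 and in Y332F, against 33.7% and 28.2% of all features. The log2 changes were -2.87 and -2.33 for apolpp and -2.415 and -1.75 for Apoltp, but -0.22 and -0.26 for Mtp. Lsp1gamma (-4.08 and -2.01) had 13, 13 and 26 counts in wild type. In Y332F the count of fat body markers was 0 without Y332F replicate 2 and 2 without Y332F replicate 1 or wild-type replicate 3. Lsp1alpha, Lsp1beta and Fbp2 were too low to test, with 0 to 2 counts in every library of each genotype, wild type included. Lsp2 and Fbp1 were also too low to test. Lsp2 had 3, 6 and 9 counts in wild type and 1, 0 and 2 in Top3b26, and Fbp1 had 0, 0 and 18 against 0, 0 and 1. Hemocyte markers (14) summed to 339 to 407 CPM in wild type, 363 to 409 CPM in Top3b26, 330 to 379 CPM in Y332F and 314 to 357 CPM in delRGG, but the scavenger receptor gene crq made up most of that. Without crq the sum was 78.9 to 153 CPM in wild type, 18.7 to 48.5 CPM in Top3b26, 41.3 to 56.6 CPM in Y332F and 44.05 to 83.99 CPM in delRGG. Of 11 tested, 6 were lower and 1, crq, higher in Top3b26, against 33.7% and 23.5% of all features. The 6 lower were Hml, gcm2, NimC4, Sr-CI, PPO1 and PPO2. In Y332F 3 were lower, where 28.2% of all features were called lower. Leaving out wild-type replicate 3 lowered the count of called markers from 7 to 4 in Top3b26 and from 3 to 1 in Y332F, where it was also 1 without Y332F replicate 2. Hml, which marks mature hemocytes, had 14, 38 and 130 counts in wild type and 0, 0 and 2 in Top3b26 and was among those lower. Of the hemocyte transcription factor genes, gcm2 was lower in Top3b26 (log2 change -3.36, edgeR adjusted p 0.00635). It had 16, 9 and 26 counts in wild type and 3, 0 and 2 in Top3b26. The genes srp, ush, gcm and lz stood at -0.61, -0.58, -0.996 and -1.61 and were not called (edgeR adjusted p 0.105, 0.087, 0.0965 and 0.0675). He and eater were too low to test, with 0 to 4 counts in every library of each genotype. Wild type held 0, 0 and 4 counts of He and 0, 3 and 4 of eater, and Top3b26 held 0 of both. NimC1, also too low to test, had 0, 4 and 12 counts in wild type and 2, 0 and 0 in Top3b26. It had 4, 0 and 4 counts in Y332F and 21, 6 and 5 in delRGG. The part of hemocytes and fat body in the levels of the 10 genes was not tested.

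**Figure D4:**
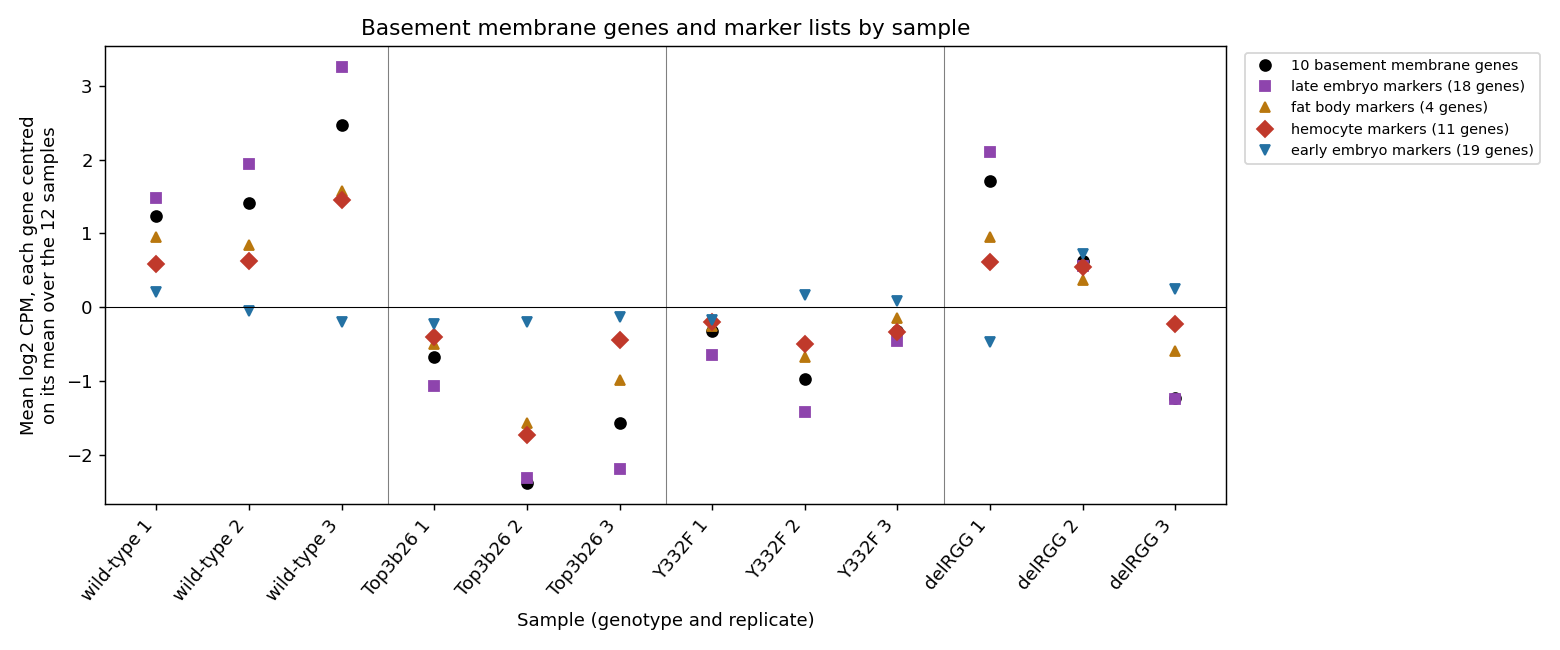
Mean centred log2 CPM of the 10 genes and of the tested genes of 4 marker lists in each of the 12 libraries. The basement membrane genes range from -2.38 in Top3b26 replicate 2 to 2.47 in wild-type replicate 3, and the late embryo markers from -2.31 to 3.26 in the same libraries.

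Other secreted matrix proteins were lower as well, where 33.7% of all features were called lower in Top3b26 and 28.2% in Y332F. All 6 tested, Mp (a collagen XV/XVIII homolog), Tig (an integrin ligand at muscle attachments), Tsp (thrombospondin), mspo, Swim and fon, were lower in Top3b26, with a median log2 change of -3.88, and lower in Y332F, with a median of -3.27. Tig, the most counted of them, stood at 223 CPM in wild type, 18.6 CPM in Top3b26 and 30.9 CPM in Y332F as genotype means. Leaving out Y332F replicate 2 lowered the Y332F count to 2, and leaving out wild-type replicate 3 lowered it to 3. In delRGG 0 of 6 were called by edgeR and by DESeq2, and 0 had an unadjusted p-value under 0.05.

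Enzymes that remodel or crosslink matrix, and their inhibitor, were lower for 7 of 8 tested (of 9) in both Top3b26 and Y332F. Of all features, 33.7% were called lower in Top3b26 and 28.2% in Y332F. In Top3b26 the log2 change of the matrix metalloproteinase gene Mmp1 was -4.03 and that of Mmp2 was -2.51 (edgeR adjusted p 0.0051 and 0.00658). For their inhibitor Timp it was -4.12 (edgeR adjusted p 0.00755). Counts in Top3b26 were few, at 17, 6 and 2 for Mmp1 and 17, 8 and 3 for Timp. The peroxidasin gene Pxn, whose product crosslinks collagen IV and which hemocytes also express, fell by 2.40 in Top3b26 (edgeR adjusted p 0.0108) and 1.97 in Y332F (edgeR adjusted p 0.0315). Loxl1, a lysyl oxidase gene, had 2 to 12 counts per library and was not called. In Y332F the count of this list was 0 without wild-type replicate 3 or Y332F replicate 2 and 1 without Y332F replicate 1.

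Genes of collagen modification and secretion were mixed. Of 8, 4 were lower and 1 higher in Top3b26, against 33.7% and 23.5% of all features. In Y332F 4 were lower and 2 higher, against 28.2% and 15.3% of all features. The count of called genes of this list in Y332F was 3 without Y332F replicate 2. The lower genes were the same in both: Plod (lysyl hydroxylase), PH4alphaEFB (a prolyl hydroxylase subunit), Tango1 (a receptor for collagen export) and Sar1 (a COPII coat GTPase). Plod went from 107 CPM in wild type to 44.3 CPM in Top3b26 and 50.5 CPM in Y332F as genotype means (log2 changes -1.28 and -1.09, edgeR adjusted p 0.00243 and 0.00882). Crag, which directs basement membrane proteins to the basal side of epithelia, rose in Top3b26 (0.58, edgeR adjusted p 0.00244) and in Y332F (0.51, edgeR adjusted p 0.00843). Rab10 was called higher in Y332F (0.26, edgeR adjusted p 0.044), though its libraries overlapped wild type (387 to 474 against 349 to 397 CPM). In Top3b26 Rab10 was not called (-0.08, edgeR adjusted p 0.477).

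Matrix receptors were lower for 10 of 12 genes in Top3b26, where 33.7% of all features were called lower. In Y332F 7 of 12 were lower and 1, the syndecan gene Sdc, higher, against 28.2% and 15.3% of all features. The medians of the receptors were -1.33 and -1.18. Without wild-type replicate 3 the called receptors numbered 5 in Top3b26 and 1 in Y332F. In Top3b26 they also numbered 5 without Top3b26 replicate 2. In Y332F they numbered 1 without Y332F replicate 1 or 2 and 5 without Y332F replicate 3. The integrin alpha genes if, mew and scb fell by 2.82, 1.61 and 1.45 on the log2 scale in Top3b26 (edgeR adjusted p 0.00466, 0.00986 and 0.0154), whereas the common beta chain mys fell by 0.24 (edgeR adjusted p 0.0212). Dystroglycan (Dg), a laminin and perlecan receptor, fell by 0.56 (edgeR adjusted p 0.00357).

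Proteins on the cell side of integrin adhesions had a median log2 change of -0.04 in Top3b26 and -0.01 in Y332F. Of 12, 4 were lower and 3 higher in Top3b26, near the 33.7% and 23.5% of all features. In Y332F 3 were lower and 1 higher, against 28.2% and 15.3% of all features, and the total called was 2 without wild-type replicate 3, Y332F replicate 1 or Y332F replicate 2. Talin (rhea) went from 591 CPM in wild type to 215 CPM in Top3b26 (log2 change -1.46, standard error 0.14, edgeR adjusted p 8.5e-05) and 275 CPM in Y332F (-1.10, standard error 0.14, edgeR adjusted p 0.000833). parvin, Fit2 and Vinc rose in Top3b26 by 0.35, 0.34 and 0.28 on that scale (edgeR adjusted p 0.00314, 0.005 and 0.0283), and Fak and stck were not called in any comparison with wild type.

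**Figure D5:**
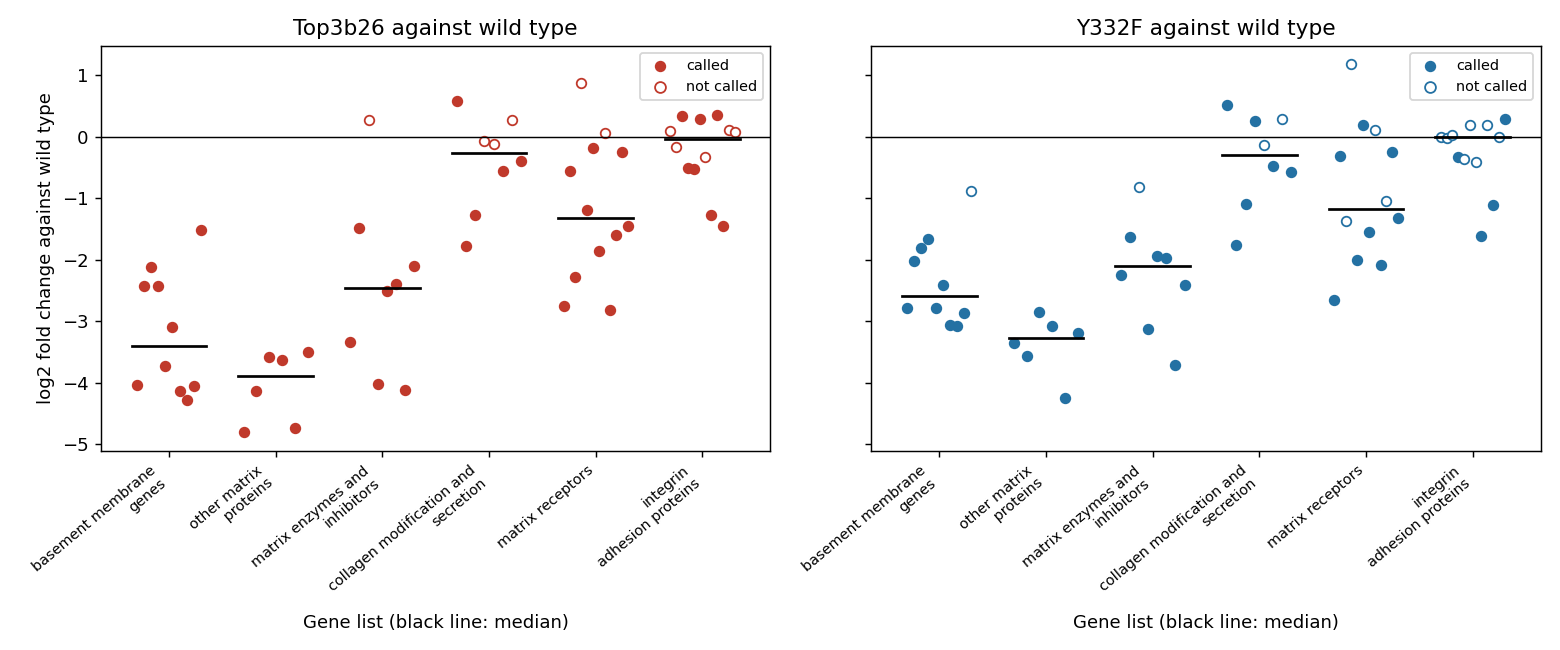
Log2 fold change against wild type of each tested gene in 6 gene lists, for Top3b26 and Y332F; filled points passed the edgeR test, open points did not, and black lines are list medians. Medians run from -3.88 for other matrix proteins to -0.04 for integrin adhesion proteins in Top3b26, and from -3.27 to -0.01 in Y332F.

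In the RIP table the 10 genes were absent, so no recovery with Top3b could be measured for them. Every gene in that table had at least 2 transcripts, and 9 of the 10 genes have 2 or more RefSeq transcripts. Among other tested genes with 2 or more RefSeq transcripts and a wild-type mean between 31.8 and 748.3 CPM, the range of the 10 genes, 53.4% of 3153 were in the RIP table. How genes entered the RIP table is not given in the sources used here, so absence from it sets no limit on binding.

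Of 47 companion genes in the 5 matrix lists, 10 were in the RIP table, none of them a secreted matrix protein or a matrix enzyme. limma called 3 of these 10 between the tagged forms, where 29.8% of all RIP genes were called. Zyx, the zyxin gene, stood at 100.7 (lowest), 132.5 (median) and 170.2 (highest) scaled RIP units in Top3b-eGFP and at 237, 263 and 301.5 in the Y332F form. The groups did not overlap, and the log2 change was 1.02 (standard error 0.20, limma adjusted p 0.00524). Rab8 was higher in the Y332F form (0.65, standard error 0.20, limma adjusted p 0.0257) and Sec23 lower (-0.58, standard error 0.16, limma adjusted p 0.0196), each without overlap. With the deposited values left unscaled, 0 of the 10 were called, and without Y332F-eGFP sample 2 or sample 3 the count was 1. Tango1, the collagen export receptor, stood at 876 ± 93 in Top3b-eGFP (SD, n = 6) and 912 ± 110 in the Y332F form (SD, n = 3) and was not called (0.06, standard error 0.14, limma adjusted p 0.785).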

How the data were processed

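The total RNA file deposited by the authors holds raw read counts for genes and for copies of transposable elements. The RIP file deposited by the authors holds a signal for each transcript that had already been normalized. The submitters' processing notes list bcl2fastq, HISAT2, featureCounts and DESeq2, with no versions or roles. Per the labels' protocols, a CORALL kit (Lexogen) was used for paired-end libraries. Genome build, annotation and strand setting are not given in the sources used here, so reads of overlapping or antisense genes may be shared, and no coordinates are given.

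Symbols came from a supplied FlyBase name table, which matched all 10 genes (nos and apoLTP of the marker lists are nanos and Apoltp there); neighbours and transcript numbers came from RefSeq (assembly Release 6 plus ISO1 MT). Counts were tested in edgeR 4.0.16 (R 4.3.3) on all 12 libraries with genotype as the factor, after filterByExpr (minimum count 10) and TMM scaling. The standard error is the log2 fold change divided by the square root of F. RIP values were summed per gene, scaled by median ratios, and tested with limma 3.58.1 on log2(value + 1), keeping genes whose mean reached 10; that scale understates the change of low genes. Reads behind the RIP values are unknown. The columns of Y332F-eGFP sample 3 and Top3b-eGFP sample 6 were matched by number and elimination, and 3 value columns that matched no sample were not used.

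Genes named were the 10 genes, Top3beta, genes of fixed lists and the 5 nearest profiles. The genes, lists and RIP scaling were chosen with earlier results of these data known. On simulated data with 200 changed features among 9991, edgeR recovered 49% of 2-fold and 70% of 4-fold changes for Top3b26 against wild type. In simulated RIP data of 2167 genes limma recovered 86% and 99%. False calls were 4 of 123 for edgeR, 37 of 165 for DESeq2 and 13 of 198 for limma. Fewer features were changed in the simulations than were called in the data, so these rates need not hold for the data. Alternatives were DESeq2 1.42.0, other scalings, filters, pseudocounts and sample sets, a replicate block, a late marker covariate and each library left out in turn. Figures were drawn with matplotlib 3.10.9.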

Additional observations from a re-analysis of the deposited data

How the results depend on the processing

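Apart from the late marker covariate, the 13 alternatives per comparison of total RNA left the sign of each of the 10 genes unchanged in the 6 comparisons, and for Top3b26 against wild type all 10 stayed called. Counts of called genes with one library left out ran from 10 to 10 for Top3b26 and 0 to 9 for Y332F against wild type, 0 to 1 for delRGG against wild type, 0 to 10 for delRGG with Top3b26 and 0 to 7 for delRGG with Y332F. For delRGG with Top3b26 the count was 10 with DESeq2, 10 with no low count filter and 0 with the compared genotypes alone. Total-count scaling moved the median of all features to -0.13 for Top3b26 and Y332F against wild type, and the counts of called genes stayed within 1.5 times. It also moved the share of higher among called features from 41% to 30.8% for Top3b26 and from 35.2% to 24.4% for Y332F. Among all features, 5849 were called for Top3b26 and 4449 for Y332F against wild type, 3684 and 2876 at a mean count of at least 50, and 225 and 264 with the late marker covariate. With one library left out, the Y332F count was 1969 without wild-type replicate 3, 2023 without Y332F replicate 2 and 2402 without Y332F replicate 1. For delRGG against wild type 601 were called, 1148 with DESeq2 and 74 with the compared genotypes alone. The cause of these differences was not tested.

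With the late marker covariate, 0 genes were called for Top3b26 or Y332F against wild type and for delRGG with Top3b26. Log2 fold changes that turned, none of them called, were as follows. For Top3b26 against wild type they became 0.39 (LanA), 0.20 (LanB1), 0.22 (LanB2), 0.33 (Col4a1), 0.33 (vkg), 0.26 (trol), 0.48 (Ndg), 0.23 (SPARC) and 0.55 (Ppn). For Y332F they became 0.14 (LanA), 0.36 (LanB2), 0.26 (wb), 0.64 (Col4a1), 0.54 (vkg), 0.44 (trol), 0.50 (Ndg), 0.42 (SPARC) and 0.39 (Ppn). For delRGG they became 0.11 (LanA), 0.28 (LanB2), 0.18 (wb), 0.47 (Col4a1), 0.22 (vkg), 0.35 (trol) and 0.18 (SPARC). For Y332F with Top3b26 they became -0.25 (LanA), -0.23 (LanB1) and -0.16 (Ppn). For delRGG with Top3b26 they became -0.28 (LanA), -0.24 (LanB1), -0.11 (vkg), -0.50 (Ndg), -0.056 (SPARC) and -0.60 (Ppn). For delRGG with Y332F they became -0.034 (LanA), -0.011 (LanB1), -0.077 (LanB2), -0.084 (wb), -0.17 (Col4a1), -0.32 (vkg), -0.091 (trol), -0.52 (Ndg), -0.24 (SPARC) and -0.44 (Ppn).

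The fit with the replicate block called 10, 9 and 0 genes for Top3b26, Y332F and delRGG against wild type. Same-numbered libraries did not deviate together throughout, with correlations from -0.65 to 0.616, so the numbers were not taken as pairs. In RIP data, where same-numbered samples correlated at -0.111 to 0.021, 0 of the 10 companion genes were called with the replicate block on samples 1 to 3, 1 with Top3b-eGFP samples 1 to 3 alone, 0 with unscaled values and 0 with single transcripts. Leaving out one RIP sample gave 1 to 3. Without the 2 samples named by a bare number, an alternative added after seeing the data, the count was 1. None of the basement membrane genes was in the RIP table, so the planned count for them has no value. Counts are limited for SPARC, down to 21 in a library.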
